A study of Saccharomyces cerevisiae with 2 samples.

Results

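Pre-mRNA splicing genes of the budding yeast Saccharomyces cerevisiae are described here in a mutant strain, ZGR3, and in the strain it comes from, ZTW1. The genes were taken by symbol: every PRP, LSM or SNU gene with a number, plus SMB1, SMD1, SMD2, SMD3, SME1, SMX2, SMX3, SNP1, BRR2, MUD1 and MUD2. This gave 49 of the 5659 genes in the deposited tables, and all 49 had a mean RPKM (reads per kilobase of coding length and per M reads of the library; M, mega) of at least 1, as did 5532 genes in all. The rule uses symbols only and no measured value. It also takes in LSM1, whose product acts in messenger RNA decay, and LSM12, whose product belongs to neither Lsm ring, and PRP43 and SNU13, whose products act in ribosome or small nucleolar RNA assembly as well.

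ZGR3 is labelled as a mutant in the ZTW1 background and ZTW1 as a wild type, and both are given as bioethanol strains. The labels do not name the mutation in ZGR3 or say how many clones were grown. Cultures of 25 mL were grown in YPD, which is rich in nutrients and holds 20 g/L glucose, and RNA was taken at entry into early stationary phase. There was 1 poly(A) library per strain, with 4.61 M reads assigned to genes for ZGR3 and 4.66 M for ZTW1, so no difference has a replicate check or a p-value. Intervals on folds and levels cover counting error only and compare these 2 libraries, not the strains.

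Splicing removes introns from newly made RNA. It is carried out by the spliceosome, which assembles on each intron from small nuclear ribonucleoproteins (snRNPs) named U1, U2, U4, U5 and U6 after their RNA, together with the Prp19 complex and a set of ATPases that drive each rearrangement. Sm proteins form a ring on the U1, U2, U4 and U5 RNAs, and Lsm proteins form a similar ring on the U6 RNA. In yeast few genes have introns, but the ribosomal protein genes, which are among the most strongly transcribed, are rich in them. The RNA parts of the snRNPs were not analysed here, and the use of splice sites cannot be read from counts per gene, so the values below are levels of the transcripts that encode the protein parts.

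Splicing transcripts as a group were at nearly the same level in both libraries. Together they took 6430 reads, or 0.139% of the total, in ZGR3 and 6182 reads, or 0.133%, in ZTW1, a fold of 1.05 (95% counting interval 1.01 to 1.09). Without PRP8, the gene of the largest spliceosomal protein, the summed fold was 0.996 (0.960 to 1.03). The main measure of change was log2((RPKM ZGR3 + 1)/(RPKM ZTW1 + 1)), which understates differences of low genes. Its median over the 49 genes was −0.02, with an interquartile range of −0.22 to 0.17. All genes tested had a median of −0.02 and an interquartile range of −0.24 to 0.18.

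Few splicing genes stood far from 0. Of the 49, 22 were above 0 and 27 below, against backgrounds of 48% and 52% of all genes tested. A log2 ratio of 0.322 in either direction, given as 0.32 from here on, was taken as a limit of size. At or above 0.32 were 4 genes (8.16%, background 12.8%), namely SNU23, PRP8, SMD2 and PRP3. At or below −0.32 were 9 genes (18.4%, background 19.2%), namely LSM8, LSM7, SMX2, PRP42, SNU114, PRP21, LSM12, LSM1 and LSM2. On this log2(RPKM + 1) scale no splicing gene was 2-fold higher (background 0.542%). LSM8 alone was 2-fold lower (background 1.92%), from 3 reads in ZGR3 and 10 in ZTW1. In reads per total reads, without the added 1, SNU23 had a fold of 2.02, with an interval that includes 1. The share at or above 0.32 lay below that of all genes, and the share at or below −0.32 was close to it.

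Counting error covered most of these differences. The 95% counting interval of the fold in reads lay above 1 for PRP8, BRR2 and SNU71 and below 1 for SNU114, LSM12 and LSM1, which is 3 genes (6.12%) each way against backgrounds of 17.9% and 19.8%. For the other 43 genes the interval included 1. Splicing genes are thinly covered, with a median of 87 reads in ZGR3 and 91 in ZTW1, against 189 and 196 for all genes tested. In the 25 splicing genes in the interquartile range of summed reads (105 to 288), none lay above 1 and 2 lay below. Of the 1372 genes tested with as many reads, the interval lay above 1 for 7.14% and below 1 for 15.8%.

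**Figure D1:**
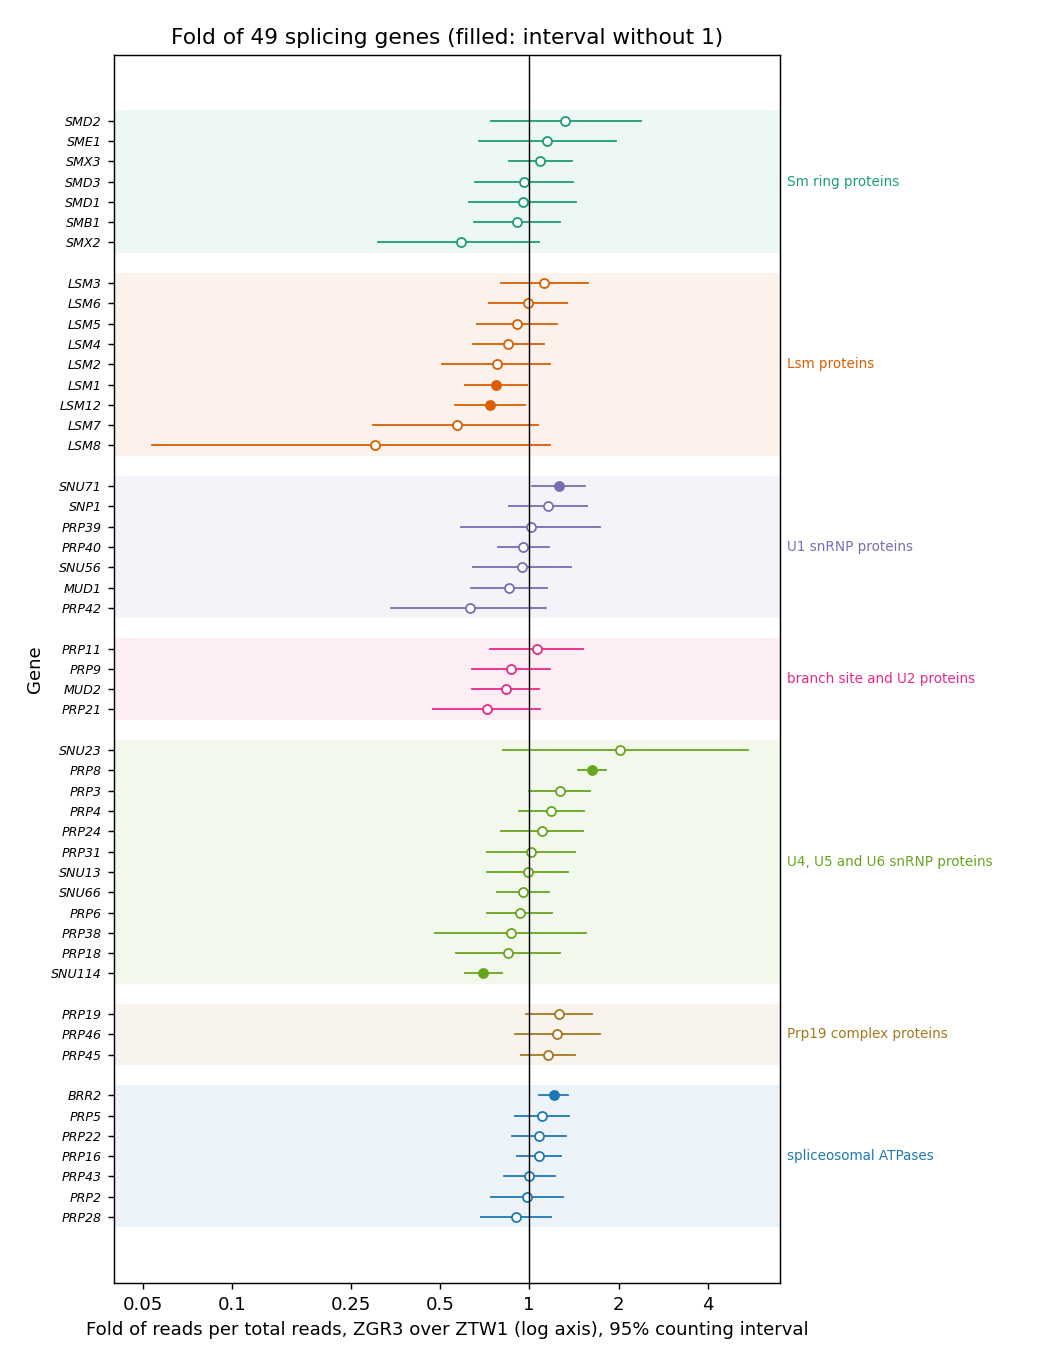
Fold in reads per total reads, ZGR3 over ZTW1, on a log axis for each of the 49 splicing genes, grouped by role and ordered within each role. Points are folds and bars are 95% counting intervals, filled where the interval leaves out 1. PRP8 (1.63), BRR2 (1.21) and SNU71 (1.26) lie to the right of 1, SNU114 (0.701), LSM12 (0.739) and LSM1 (0.775) to the left, and the bar of LSM8, from 3 and 10 reads, is the widest.

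The levels of splicing transcripts spanned a wide range that was alike in both libraries. The median RPKM was 20.4 in ZGR3 and 18.6 in ZTW1, below the 31.8 and 32.6 of all genes tested, and the range was 1.97 to 116 in ZGR3 and 2.93 to 107 in ZTW1. SMX3, which encodes the SmF protein, was the most abundant per length in both, with 116 RPKM in ZGR3 (exact 95% Poisson interval 97.9 to 137) and 107 RPKM in ZTW1 (89.3 to 127). LSM6 came next in both, with 74.0 RPKM in ZGR3 (59.4 to 91.0) and 74.8 RPKM in ZTW1 (60.2 to 91.8). Its interval did not overlap that of SMX3 in ZGR3 but did in ZTW1. Below LSM6 the order differed, with LSM3, LSM5 and LSM1 in ZGR3 and LSM5, LSM1 and LSM3 in ZTW1, with intervals that overlapped within each library. The same 4 genes were lowest in both, LSM8, PRP42, PRP39 and SNU23, with 1.97 to 5.93 RPKM in ZGR3 and 2.93 to 6.50 RPKM in ZTW1. Across the 49 genes Spearman's rho between the libraries was 0.93 (a description, since the genes share their libraries).

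**Figure D2:**
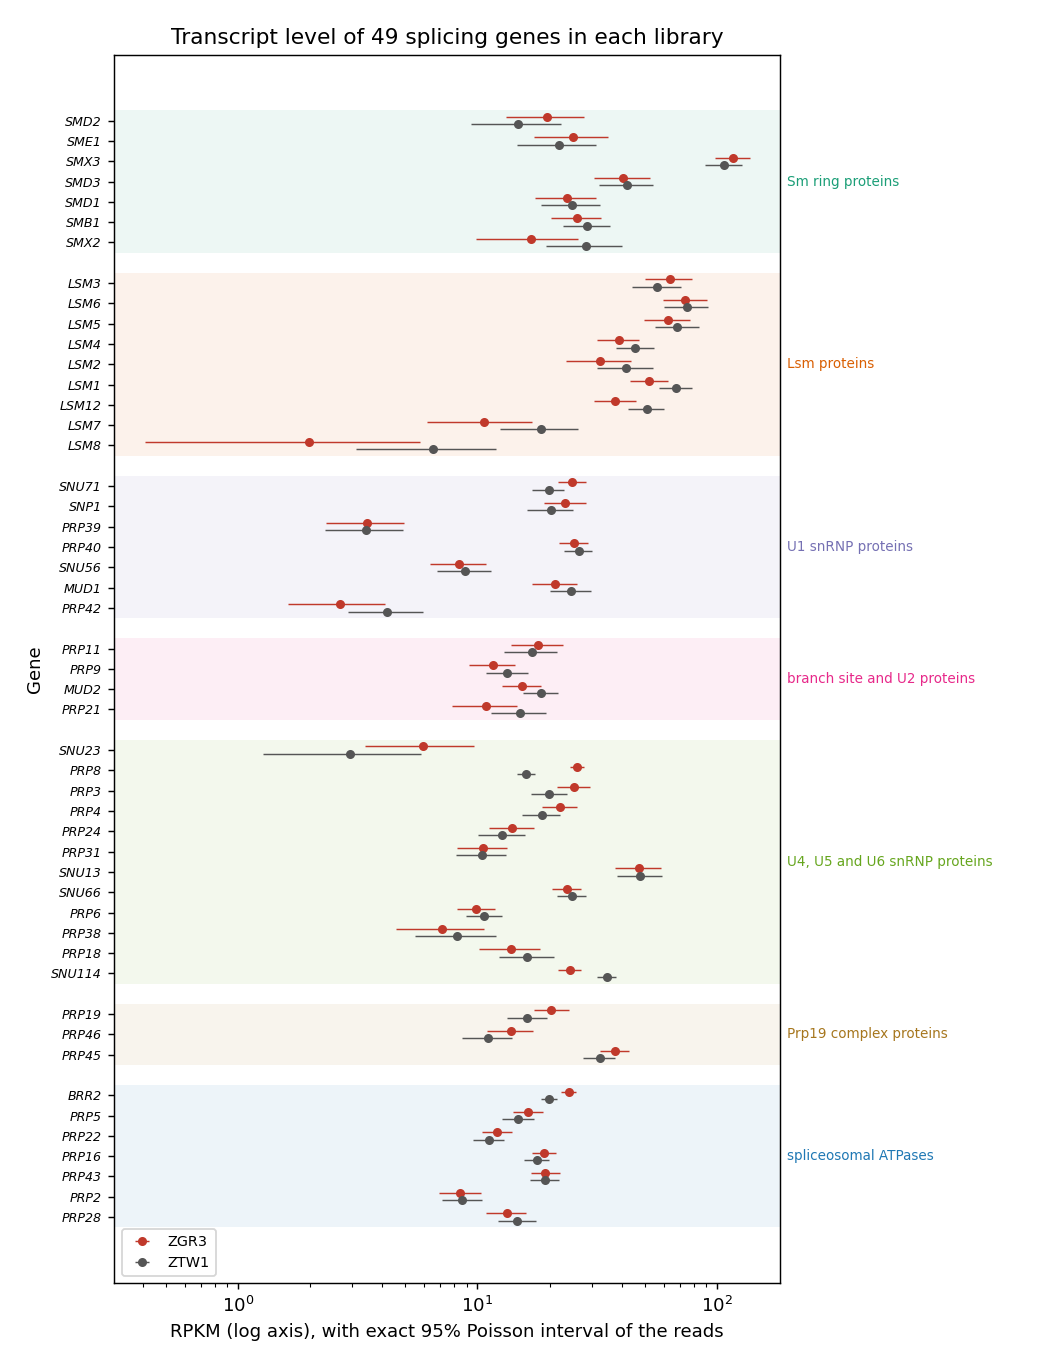
RPKM of each splicing gene in ZGR3 (red, upper point) and ZTW1 (grey, lower point), on a log axis, with exact 95% Poisson intervals of the reads. In most rows the bars of both libraries overlap. Those of PRP8, SNU114 and BRR2 do not, and SMX3 is the highest gene in both libraries.

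The widest contrast among deeply covered genes was between subunits of one particle. Prp8, Brr2 and Snu114 form the core of the U5 snRNP: Prp8 holds the catalytic RNA centre, Brr2 is the ATPase that unwinds U4 from U6, and Snu114 is a GTPase that regulates Brr2. PRP8 had 870 reads and 26.1 RPKM in ZGR3, against 539 reads and 16.0 RPKM in ZTW1, 1.63-fold higher (1.46 to 1.82). BRR2 had 719 reads and 24.03 RPKM in ZGR3, against 602 reads and 19.9 RPKM in ZTW1, 1.21-fold higher (1.08 to 1.35). SNU114 had 339 reads and 24.3 RPKM in ZGR3, against 489 reads and 34.7 RPKM in ZTW1, 1.43-fold lower (1.24 to 1.64). Transcripts of the 3 partners were thus close to one level per length in ZGR3 and spread over a wider range in ZTW1, where SNU114 was highest and PRP8 lowest.

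Ratios taken within each library, which need no scaling between libraries, gave the same picture. Reads per base of PRP8 over those of SNU114 were 1.07 in ZGR3 (0.945 to 1.22) and 0.461 in ZTW1 (0.407 to 0.522). For BRR2 over SNU114 they were 0.989 in ZGR3 (0.868 to 1.13) and 0.574 in ZTW1 (0.509 to 0.648). PRP8 over BRR2 was 1.08 in ZGR3 (0.982 to 1.20) and 0.803 in ZTW1 (0.713 to 0.903). In each of the 3 pairs the intervals of the libraries did not overlap.

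**Figure D3:**
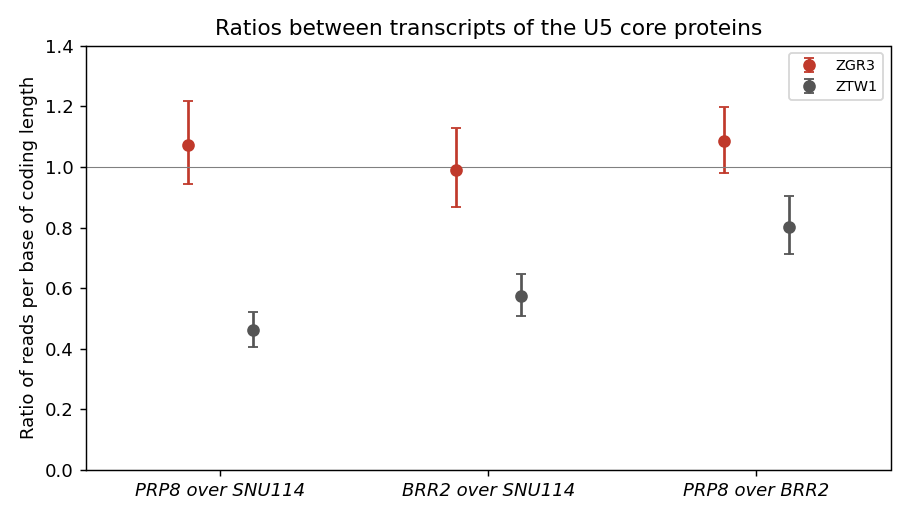
Ratio of reads per base of coding length between transcripts of the U5 core proteins, in ZGR3 (red, left) and ZTW1 (grey, right), with exact 95% counting intervals. In ZGR3 all 3 ratios have intervals that include 1, from 0.989 to 1.08, and in ZTW1 all 3 lie below 1, from 0.461 to 0.803.

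The genes next to PRP8 and SNU114 on their chromosomes were shifted the same way. PRP8 lies on the right arm of chromosome VIII, 47 tested genes from its end by the order of the R64 annotation. Of the 24 tested genes nearest to it, 21 were above 0 and 3 below, with a median log2 ratio of 0.47. The value of PRP8 was 0.67, and 3 of the neighbours were higher. A neighbour median as high or higher was rare: that of PRP8 stood at percentile 99.7 over all genes tested. SNU114 lies on chromosome XI, and of its 24 nearest genes 22 were below 0, with a median of −0.38 (percentile 2.44). The value of SNU114 was −0.50, and 8 neighbours were lower. With the neighbour median subtracted, PRP8 was at 0.20 and SNU114 at −0.12, so a strain difference of these genes themselves and one of their chromosome regions cannot be told apart in these tables.

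MUD2, for the partner of the branch site binding protein, lies on the same chromosome as SNU114 and had 23 of 24 neighbours below 0 (median −0.38, percentile 2.06). MUD2 itself was at −0.25, above 16 of those neighbours. BRR2, on chromosome V, had a neighbour median of 0.11 (percentile 92.0) with 17 of 24 above 0, and was at 0.26, or 0.15 after subtraction. The other splicing genes of chromosome XI were PRP40 at −0.06 and PRP16 at 0.10, with neighbour medians of −0.08 and 0.14. LSM12, the second splicing gene of chromosome VIII, was at −0.43 beside a neighbour median of 0.15, and so differed in sign from its surroundings.

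**Figure D4:**
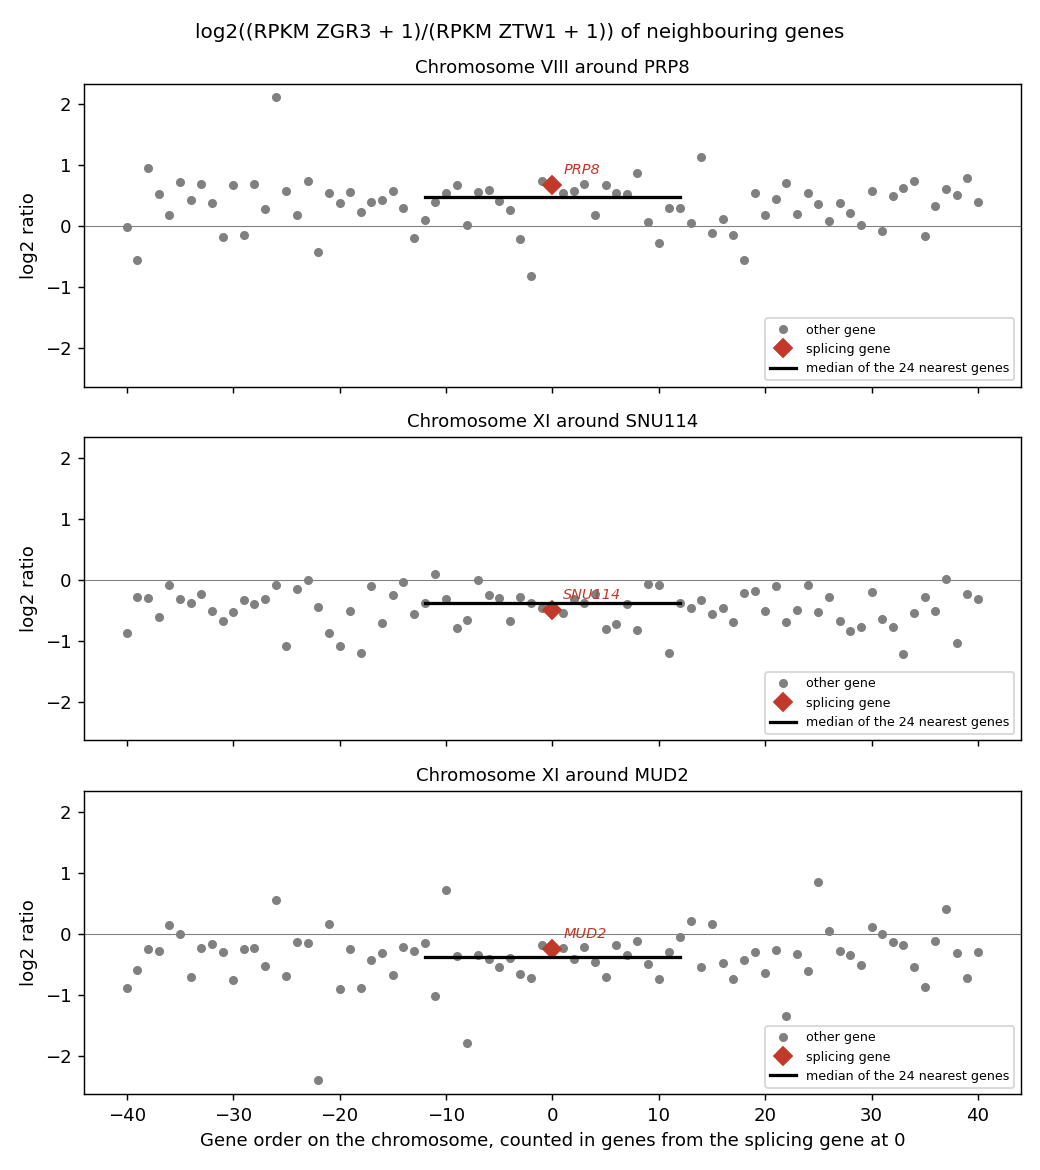
log2((RPKM ZGR3 + 1)/(RPKM ZTW1 + 1)) of each tested gene against its order on the chromosome, up to 40 genes to either side of PRP8, SNU114 and MUD2 (red diamonds, at 0). Black lines are medians of the 24 nearest genes, at 0.47 around PRP8 and −0.38 around both SNU114 and MUD2, and each red diamond lies within the spread of the grey points around it.

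The other genes of the U4, U5 and U6 snRNP class centred on 0. The class has 12 genes with PRP8 and SNU114 in it, of which 3 were at or above 0.32 (25%, background 12.8%), PRP8, SNU23 and PRP3, and SNU114 alone was at or below −0.32. The 10 genes without PRP8 and SNU114 had a median log2 ratio of 0.00, with 5 above 0 and 5 below, and the counting interval included 1 for all 10. PRP3 and PRP4, which encode a pair of proteins of the U4/U6 particle, were at 0.33 and 0.24. PRP3 had 164 reads and 25.2 RPKM in ZGR3, against 131 reads and 19.9 RPKM in ZTW1, 1.27-fold higher with an interval of 0.9999 to 1.60. PRP31 and SNU13, for proteins bound to U4 RNA, were at 0.01 and −0.02, and PRP24, for the factor that anneals U4 with U6, was at 0.13. PRP6 and SNU66, which join U4/U6 to U5, were at −0.10 and −0.07, and PRP18, for a factor of the second catalytic step, was at −0.22.

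SNU23 and PRP38 encode proteins of the particle that take part in its activation, and both had few reads. SNU23 had the highest log2 ratio of the 49 genes, 0.82, from 16 reads and 5.93 RPKM in ZGR3, against 8 reads and 2.93 RPKM in ZTW1. The fold of 2.02 had an interval of 0.817 to 5.46, so these reads are too few to show a difference. PRP38 was at −0.18 with 24 reads in ZGR3 and 28 in ZTW1.

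Lsm transcripts were mostly lower in ZGR3. Of 9 LSM genes 8 were below 0 (background 52%), with a median log2 ratio of −0.36, and 5 were at or below −0.32 (55.6%, background 19.2%). LSM genes are short, and the shortest class of genes as a whole was lower in ZGR3, with a median of −0.16. LSM1, LSM4 and LSM12 fall in the next class of length, with a median of −0.10. Summed reads of the 9 LSM genes were 636 in ZGR3 and 765 in ZTW1, a fold of 0.841 (0.755 to 0.935). The interval of the single gene lay below 1 for 2 of the 9 (22.2%, background 19.8%). These were LSM1 and LSM12, whose products are not part of the U6 ring. Without LSM1, LSM8 and LSM12, the other 6 had a summed fold of 0.905, with an interval that includes 1 (0.790 to 1.04). LSM3 was the exception at 0.17, and LSM6 (−0.02), LSM5 (−0.13) and LSM4 (−0.23) were within 0.32 of 0. The LSM5 coding sequence is overlapped over 84.8% of its length by YER145C-A, an open reading frame of the R64 annotation not analysed here. Since the handling of strand is not given, reads of the pair cannot be told apart.

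The ring on U6 RNA is made of Lsm2 to Lsm8, and a cytoplasmic ring of Lsm1 to Lsm7 promotes decapping of messenger RNA, so LSM8 and LSM1 mark one ring each. LSM8 had 3 reads and 1.97 RPKM in ZGR3, against 10 reads and 6.50 RPKM in ZTW1. Its ratio of 0.303 had a counting interval of 0.0536 to 1.18. LSM1 had 125 reads and 52.2 RPKM in ZGR3, against 163 reads and 67.4 RPKM in ZTW1, 1.29-fold lower (1.02 to 1.64). LSM1 exceeded LSM8 per length in both libraries, 26.5-fold in ZGR3 (8.86 to 130) and 10.4-fold in ZTW1 (5.49 to 22.0). The 6 genes of the shared subunits had a median of −0.18, with 5 below 0, and a summed fold of 0.905 (0.790 to 1.04).

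LSM7 and LSM2 were the lowest of the shared subunits. LSM7 had 17 reads and 10.6 RPKM in ZGR3, against 30 reads and 18.5 RPKM in ZTW1, 1.75-fold lower with an interval that includes 1 (0.932 to 3.37). LSM2 had 43 reads and 32.4 RPKM in ZGR3, against 56 reads and 41.7 RPKM in ZTW1, 1.29-fold lower (0.850 to 1.96). LSM12 had 98 reads and 37.7 RPKM in ZGR3, against 134 reads and 51.0 RPKM in ZTW1, 1.35-fold lower (1.03 to 1.77). Of the 5 LSM genes past −0.32, LSM1 and LSM12, which had the most reads, were those whose interval left out 1. Both intervals included 1 once the trend of coding length was subtracted, at 0.942 to 1.52-fold lower for LSM1 and 0.963 to 1.65-fold lower for LSM12. For LSM1 this was also so with the median of its 24 nearest genes subtracted (0.996 to 1.61).

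Genes of messenger RNA decay, partners of the Lsm1 to Lsm7 ring among them, lay near 0. The list held 12 decapping, exonuclease and SKI genes, of which SKI2, SKI3, SKI7 and SKI8 serve the exosome and not decapping. All 12 were within 0.32 of 0, as were 68% of all genes. The median of the 12 was 0.11, and 8 were above 0 (66.7%, background 48%). These genes are longer than the LSM genes, with median coding lengths of 1950 and 330 bases, and their median was 0.05 after subtraction of the length trend. The difference between the lists was not tested. The 4 furthest from 0 were EDC1 (0.21) and EDC2 (0.18), enhancers of decapping, DHH1 (0.20), a helicase gene, and SKI3 (−0.19), for a scaffold of the complex that feeds RNA to the exosome. KEM1, the exonuclease gene now named XRN1, was at 0.12. The counting interval lay above 1 for DHH1, EDC2 and KEM1, 3 of the 12 genes (25%, background 17.9%), and below 1 for none. The summed fold of the 12 was 1.07 (1.03 to 1.11). Their median of 272 reads in ZGR3 was above that of the splicing genes.

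Sm transcripts were spread on both sides of 0. Of 7 genes 3 were above 0 and 4 below, the median was −0.06, and the summed reads were 397 in ZGR3 and 403 in ZTW1, a fold of 0.996 (0.865 to 1.15). SMD1 had 48 reads and 23.6 RPKM in ZGR3, against 51 reads and 24.8 RPKM in ZTW1. SMD3 had 57 reads and 40.4 RPKM in ZGR3, against 60 reads and 42.1 RPKM in ZTW1. Both were nearly level, as were SMB1 (−0.13), SMX3 (0.12) and SME1 (0.19).

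SMX2, for the SmG protein, and SMD2 were the furthest from 0 in opposite directions. SMX2 had 18 reads and 16.7 RPKM in ZGR3, against 31 reads and 28.4 RPKM in ZTW1, 1.70-fold lower (0.924 to 3.23). SMD2 had 30 reads and 19.5 RPKM in ZGR3, against 23 reads and 14.8 RPKM in ZTW1, 1.32-fold higher (0.741 to 2.38). Neither difference was larger than counting error. One copy of each Sm protein sits in the ring. SMX3 exceeded SMD2 per length 5.95-fold in ZGR3 (3.99 to 9.15) and 7.21-fold in ZTW1 (4.60 to 11.8).

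Sm and Lsm genes are short, and short genes tended to be lower in ZGR3. The 16 Sm and Lsm genes have coding lengths of 234 to 591 bases. Over all genes, the shortest of 10 classes of coding length (78 to 438 bases) had a median log2 ratio of −0.16. The longest (2811 to 14733 bases) had 0.09. The second shortest class (438 to 645 bases), which holds LSM1, LSM4, LSM12, SMB1 and SMD1, had −0.10. After subtraction of a running median of genes ordered by length, the LSM median was −0.17 and the Sm median 0.13. PRP8 and BRR2, with coding lengths of 7242 and 6492 bases, were then at 0.59 and 0.18, and SNU114 at −0.59. Over the 49 genes Spearman's rho of coding length with the log2 ratio was 0.22, and over all 5532 it was 0.19 (descriptions across genes of the same libraries). The part of this trend in the LSM values was not tested.

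**Figure D5:**
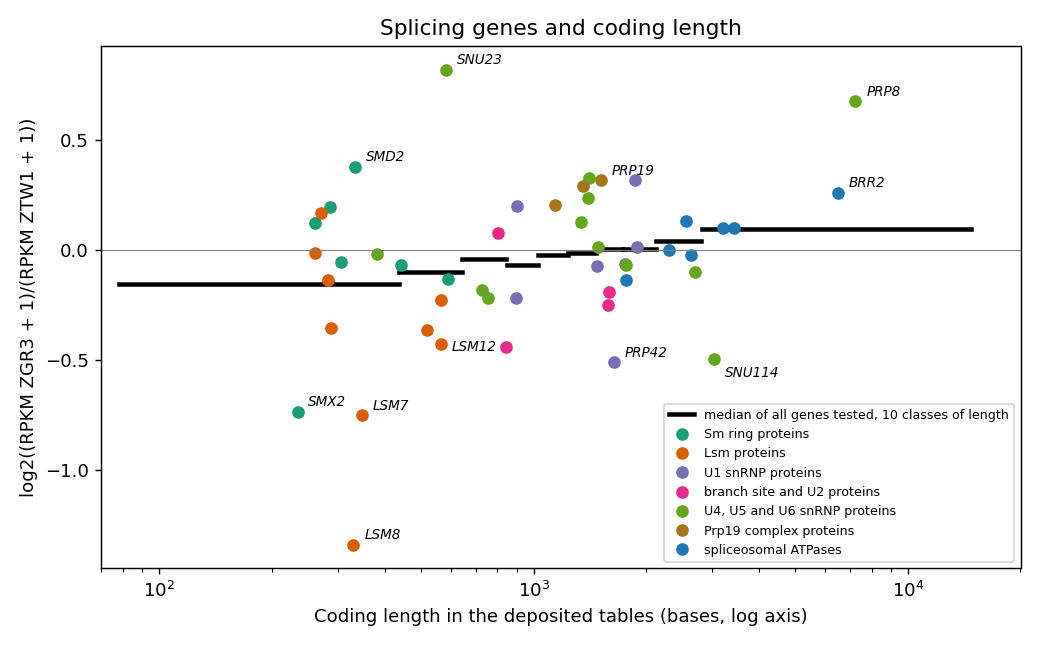
log2((RPKM ZGR3 + 1)/(RPKM ZTW1 + 1)) of the 49 splicing genes against coding length in bases (log axis), coloured by role. Black bars are medians of all genes tested in 10 classes of coding length, which run between −0.16 in the shortest class and 0.09 in the longest, and LSM8, LSM7 and SMX2 lie below the bar of their class while SNU23, SMD2 and PRP8 lie above theirs.

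Transcripts of U1 snRNP proteins, which recognise the start of the intron, showed no common direction. The 7 genes had a median of −0.06, with 3 above 0 and 4 below. SNU71 had 214 reads and 24.9 RPKM in ZGR3, against 172 reads and 19.8 RPKM in ZTW1, 1.26-fold higher (1.02 to 1.55). On the log2(RPKM + 1) scale it was at 0.317, just under the limit of 0.322. SNP1, for the U1-70K protein, was at 0.20, MUD1, for another protein bound to the U1 RNA, at −0.22, SNU56 at −0.07 and PRP40 at −0.06.

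PRP39 and PRP42, which encode related proteins that bind each other in yeast U1, were the least abundant of this class in both libraries. PRP39 had 30 reads in each, 3.44 RPKM in ZGR3 and 3.41 RPKM in ZTW1. PRP42 had 20 reads and 2.65 RPKM in ZGR3, against 32 reads and 4.20 RPKM in ZTW1, 1.58-fold lower with an interval of 0.878 to 2.92. Reads covered 35.2% of PRP39 in ZGR3 and 36.0% in ZTW1, and 35.7% of PRP42 in ZGR3 and 46.1% in ZTW1, against median coverages over the 49 genes of 91.7% in ZGR3 and 92.5% in ZTW1.

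Genes that act at the branch site with U2 were mostly below 0, within counting error. PRP9, PRP11 and PRP21 encode the subunits of the factor that human studies call SF3a. PRP21 had 42 reads and 10.8 RPKM in ZGR3, against 59 reads and 15.0 RPKM in ZTW1, 1.39-fold lower (0.920 to 2.12). PRP9 was at −0.19, PRP11 at 0.08 and MUD2 at −0.25. The 4 genes had a median of −0.22 and a summed fold of 0.864 (0.739 to 1.01).

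The Prp19 complex joins the spliceosome at activation and stabilises its catalytic core. All 3 of its genes taken by the rule were above 0 (background 48%). Their log2 ratios were 0.315 for PRP19, a ubiquitin ligase gene, 0.29 for PRP46 and 0.21 for PRP45. PRP19 had 142 reads and 20.4 RPKM in ZGR3, against 114 reads and 16.2 RPKM in ZTW1, 1.26-fold higher (0.977 to 1.63). No single interval left out 1, while the summed reads, 425 in ZGR3 and 356 in ZTW1, gave 1.21-fold (1.05 to 1.39). A further 7 genes of this complex, not a full list of the rest, were grouped after their values were seen. They had a median of −0.0043, with 3 above 0 and 4 below, and a summed fold of 1.09 (0.993 to 1.20). CLF1 was at 0.49, CEF1 at 0.16, ISY1 at 0.03, SYF1 at −0.0043, SYF2 at −0.18, NTC20 at −0.37 and SNT309 at −0.67. SNT309 had 29 reads in ZGR3 and 48 in ZTW1.

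The spliceosomal ATPase genes taken by the rule, other than BRR2, were nearly level. PRP5 and PRP28, the DEAD-box genes of U2 joining and U1 release, were at 0.13 and −0.14. PRP2, PRP16 and PRP22, the DEAH-box genes that act before the first step, before the second step and at release of the spliced RNA, were at −0.02, 0.10 and 0.10. PRP43, for the helicase that takes the spliceosome apart, had 204 reads and 19.2 RPKM in ZGR3 and 206 reads and 19.2 RPKM in ZTW1, a fold of 1.001 (0.820 to 1.22). The 7 genes, BRR2 included, had a median of 0.10. All 7 were within 0.32 of 0, as were 68% of all genes. The interval lay above 1 for BRR2 alone (14.3%, background 17.9%). SUB2, a DEAD-box gene of the spliceosome not taken by the rule, had 671 reads in ZGR3 and 768 in ZTW1. Its fold of 0.883 had an interval that left out 1 (0.795 to 0.981).

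A list of 46 further spliceosome genes, not taken by the symbol rule, had a median of −0.06. There were 17 above 0 (37.0%, background 48%) and 29 below (63.0%, background 52%). Of these, 5 were at or above 0.32 (10.9%, background 12.8%) and 9 at or below −0.32 (19.6%, background 19.2%). The interval lay above 1 for 3 (6.52%, background 17.9%) and below 1 for 5 (10.9%, background 19.8%). MSL5, which encodes the branch site binding protein that pairs with Mud2, had 445 reads and 67.5 RPKM in ZGR3, against 278 reads and 41.7 RPKM in ZTW1, 1.62-fold higher (1.39 to 1.89). Its 24 nearest genes had a median of 0.02. Of the genes directly beside it, CLF1 was also higher, with 350 reads and 36.8 RPKM in ZGR3 against 249 reads and 25.9 RPKM in ZTW1, 1.42-fold (1.20 to 1.68), and CFT2 was at 0.04. HSH49, for a U2 protein of the SF3b factor, had 23 reads and 7.77 RPKM in ZGR3, against 49 reads and 16.4 RPKM in ZTW1, a log2 ratio of −0.99. The fold in reads of HSH49 was 0.475, with an interval that left out 1 (0.276 to 0.794). IST3 (−0.77) and YSF3 (−0.69) were the other genes furthest from 0. IST3 had 20 reads in ZGR3 and 36 in ZTW1, with an interval just below 1 (0.308 to 0.997). YSF3 had 13 reads in ZGR3 and 22 in ZTW1, with an interval that includes 1 (0.276 to 1.24).

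Lists for other nuclear machines had medians just above that of the splicing genes. Ribosome biogenesis genes of the UTP, NOP and RRP series had a median of 0.07 over 51 genes, with NOP15 (−0.68), NOP14 (0.68), RRP3 (0.55) and NOP2 (0.40) furthest from 0 at a mean RPKM of at least 10. RNA polymerase subunit genes had a median of 0.04 over 31 genes, with RPB10 (−0.78), RPC10 (0.55), RPC25 (−0.52) and RPA49 (0.49) furthest at that level. Below that level, RPC17 was the highest at 1.10, from 28 reads in ZGR3 and 12 in ZTW1 (interval of the fold 1.16 to 5.09). RPC11 was the lowest at −0.68, from 5 reads in ZGR3 and 9 in ZTW1 (0.148 to 1.87). RPC10, on chromosome VIII, and RPC25, on chromosome XI, had neighbour medians of 0.39 and −0.50. Their counting intervals included 1 (0.874 to 2.53 and 0.436 to 1.05). RPB10 and RPA49 had neighbour medians of 0.05 and −0.0011, and their intervals left out 1. These differences between lists carry no test.

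Among the splicing genes themselves, SMD2, LSM2, LSM7 and MUD1 carry an intron in the R64 annotation. Their log2 ratios were 0.38, −0.36, −0.75 and −0.22. Counts per gene do not separate spliced from unspliced transcripts, and values are shares of each library's reads, so a change in the amount of RNA per cell could not be seen.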

How the data were processed

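Poly(A) RNA of 1 ZGR3 and 1 ZTW1 culture was sequenced on Illumina libraries, per the labels' protocols. For each gene the authors deposited a count of unique reads, RPKM and coverage, the percent of the listed length with reads, per the file headers. Counts summed to the header totals, and counts and lengths gave back every RPKM value. Reads were mapped to sacCer2 according to the submitters' processing notes. Aligner, read filters and strand handling: not given in the sources used here. Each of the 5659 listed lengths is a multiple of 3, as for coding sequence without untranslated ends. Genes without reads in a library were set to 0. Chromosomes and gene order came from RefSeq assembly R64 by gene ID (5653 of 5659 genes); coordinates are left out, as R64 is another build.

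From these values, log2 ratios with a pseudocount of 1 RPKM and a minimum mean of 1 RPKM were computed. Folds are reads per total reads, with Clopper-Pearson 95% intervals of the binomial share. Reads carry no molecular identifiers, so intervals cover counting error only. All members were named, with full values at a log2 ratio of 0.32 or more in size and for 8 genes regardless. Of each other list, the 4 genes furthest from 0 at a mean RPKM of at least 10 were named. 7 further Prp19 complex genes, CFT2, RPC11, RPC17, KEM1, SUB2 and SNU71 were added after their values were seen. Members, lists and alternatives were chosen with earlier results of these data known. Functions were tested on simulated counts. Software was matplotlib 3.10.9, scipy 1.17.1, pandas 2.3.3 and numpy 2.4.6 under Python 3.11.15.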

Additional observations from a re-analysis of the deposited data

How the results depend on the processing

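Of 11 alternative settings, 9 were chosen with the design and 2, the subtraction of the median of the 24 nearest genes and a minimum of 50 reads in both libraries, after seeing the data. The median log2 ratio of the 49 genes lay between −0.03 and 0.04. Every class median moved by less than the distance from middle to end of the log2 counting interval of its middle gene or genes. This limit is wide: for LSM it was 0.60, more than the size of the median itself, so a move to 0 would have passed. It therefore does not show that the class medians are stable. The medians of the Sm, U1, and U4, U5 and U6 classes took either sign, from −0.06 to 0.13, from −0.07 to 0.07 and from 0.00 to 0.10. LSM medians stayed between −0.36 and −0.17. The number of genes at or above 0.32, 4, was 2 with a pseudocount of 5 RPKM, 7 after subtraction of chromosome medians and 2 of 36 genes at 50 reads, where 3 were at or below −0.32 in place of 9. LSM8, the 1 gene 2-fold lower, was not so with a pseudocount of 5 RPKM, with CPM, at a minimum mean of 10 RPKM or at 50 reads, which left 0. The filters remove it by construction. SNU114 was at −0.26 after subtraction of its chromosome's median. PRP8, BRR2, SNU114, LSM1 and LSM12 kept their sign in every setting. Of the 6 genes whose counting interval left out 1, 2 no longer did so after subtraction of the length trend, LSM1 and LSM12, and 2 after subtraction of the 24-gene median, LSM1 and SNU114. BRR2 then had a lower bound of 1.005. All 6 still did so under centring, TMM or chromosome medians. No paired analysis was possible because each strain had 1 library. At a median of 87 reads in ZGR3 and 91 in ZTW1, the counting interval included 1 for 43 of the 49 genes. Differences smaller than these intervals were not detectable at this depth.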

Other observations

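Genes that carry an intron in the R64 annotation, the substrates of the splicing machinery, were looked up after the data had been seen. Of these, 249 were tested. The 89 that encode ribosomal proteins had a median log2 ratio of 0.02, with 49 above 0 (55.1%, background 48%). Among them 7 were at or above 0.32 (7.87%, background 12.8%) and 5 at or below −0.32 (5.62%, background 19.2%). The other 160 had a median of −0.08, with 63 above 0 (39.4%) and 97 below (60.6%), 13 at or above 0.32 (8.1%) and 43 at or below −0.32 (26.9%). The 5229 genes without an intron, ribosomal protein genes left out, had a median of −0.02. Of those genes 48.1% were above 0, 51.9% below, 13.0% at or above 0.32 and 19.3% at or below −0.32. Genes with introns are short, with median coding lengths of 417 bases for the ribosomal protein genes and 735 bases for the others, against 1287 bases for genes without introns. After subtraction of the length trend the medians were 0.13, −0.02 and 0.00 in the same order.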
